A study of Mus musculus with 6 samples.

Results

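The flavin monooxygenase genes Fmo1, Fmo2, Fmo4 and Fmo5 were examined in whole liver of wild-type and Pfn2-/- mice, which lack profilin 2, a small actin-binding protein. The 4 genes are those of the family whose rows carry exactly 1 gene symbol and that an earlier look at these arrays singled out. They were chosen by the difference between the genotypes, since Fmo2 and Fmo4 lay lower in the knockout, and they are 4 of 22180 genes measured. The genotype contrast of these genes is therefore given as a description and not as a test.

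The study used 6 Affymetrix arrays of C57BL/6 liver, 3 of wild-type and 3 of Pfn2-/- mice, described as independent replicas of each genotype. In both genotypes the mouse of replicate 1 was aged 9 months, that of replicate 2 was aged 8.5 months and that of replicate 3 was aged 8 months. No treatment was recorded, and the labels state neither the sex of the mice nor the kind of Pfn2 allele. Values are RMA expression values on the log2 scale, where a step of 1 is a doubling, and array medians ran from 4.36 to 4.41. The hepatocyte genes Alb and Ttr were bright on all arrays, Alb at a mean of 12.99 in wild type and 12.96 in the knockout, and Ttr at 10.73 to 10.92. The row of Pfn2 was dim, at 4.02, 3.85 and 4.09 in wild type and 3.88, 3.81 and 3.93 in the knockout, so it could not check the genotype labels. The number of arrays limits the precision. In whole liver, fewer cells of a type and less RNA per cell cannot be told apart.

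Flavin monooxygenases are enzymes of the endoplasmic reticulum that bind FAD, take electrons from NADPH and hold oxygen on the flavin until a substrate with a soft nucleophilic nitrogen or sulfur atom arrives. They turn amines into N-oxides and thioethers into S-oxides, both from drugs and from the diet. FMO1 has a broad substrate range and also oxidises hypotaurine to taurine, FMO2 is best known from lung, FMO4 is the least characterised, and FMO5 inserts oxygen beside ketones in a Baeyer-Villiger reaction. In the mouse, Fmo1, Fmo2 and Fmo4 lie next to each other on chromosome 1, in the gene order of a RefSeq table of assembly GRCm38.p6, while Fmo5 lies alone on chromosome 3.

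The promoter windows show the sequence before the starts of Fmo2 and Fmo4, the genes with the greater differences, beside that of Fmo5. Fmo1 lies in the same cluster as Fmo2 and Fmo4, and its difference was close to that of Fmo5. Each window runs from 250 bases before to 50 bases after an annotated start, is 300 bases long and comes from RefSeq on build GRCm38.p6. Windows matched 3 of the 4 genes, Fmo2 with 2 starts. The downstream Fmo2 window (chr1:162898444-162898743, minus strand) and the upstream one (chr1:162898709-162899008, minus strand) overlap at their ends. The Fmo4 window lies at chr1:162812500-162812799 on the minus strand and the Fmo5 window at chr3:97628769-97629068 on the plus strand. Each is written 5′ to 3′, and capitals mark the motif matches described next.
Fmo2 downstream start: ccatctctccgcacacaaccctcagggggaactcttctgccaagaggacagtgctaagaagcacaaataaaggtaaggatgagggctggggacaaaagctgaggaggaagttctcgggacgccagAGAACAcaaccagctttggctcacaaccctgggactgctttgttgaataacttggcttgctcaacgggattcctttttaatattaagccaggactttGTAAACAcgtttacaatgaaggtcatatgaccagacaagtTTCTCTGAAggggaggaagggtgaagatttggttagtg
Fmo2 upstream start: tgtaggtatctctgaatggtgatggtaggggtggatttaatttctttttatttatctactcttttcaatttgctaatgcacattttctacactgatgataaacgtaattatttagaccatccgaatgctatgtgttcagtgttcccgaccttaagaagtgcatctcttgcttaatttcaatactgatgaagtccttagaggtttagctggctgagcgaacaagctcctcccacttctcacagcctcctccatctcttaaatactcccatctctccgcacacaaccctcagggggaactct
Fmo4: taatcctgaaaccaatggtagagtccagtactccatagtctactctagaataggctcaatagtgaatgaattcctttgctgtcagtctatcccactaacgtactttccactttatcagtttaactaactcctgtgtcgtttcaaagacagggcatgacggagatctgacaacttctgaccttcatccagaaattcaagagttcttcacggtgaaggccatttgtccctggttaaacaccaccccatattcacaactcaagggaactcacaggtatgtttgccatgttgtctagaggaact
Fmo5: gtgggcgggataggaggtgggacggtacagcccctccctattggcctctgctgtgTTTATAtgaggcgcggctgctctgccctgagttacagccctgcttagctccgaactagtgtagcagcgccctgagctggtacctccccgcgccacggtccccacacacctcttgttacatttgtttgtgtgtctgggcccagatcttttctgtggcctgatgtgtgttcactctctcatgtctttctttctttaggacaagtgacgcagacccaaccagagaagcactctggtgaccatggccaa

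The 6 motifs searched on both strands were GCGTG, the core of the aryl hydrocarbon receptor site, and TTCNNNGAA, the STAT5 site. The others were AGAACA, a single arm of the glucocorticoid receptor site, then TGTTTAC for FOXA factors, then CACGTG, the E-box, and last TATAAA, the TATA box. The downstream Fmo2 window held 3 matches, which did not overlap. They were AGAACA at -125 from the start, the reverse complement of TGTTTAC at -28, and TTCNNNGAA at 13. Of 32817 windows of the same length, 19% held AGAACA, 3.65% held TGTTTAC and 8.29% held TTCNNNGAA. The upstream Fmo2 window and the Fmo4 window held none of the 6. The Fmo5 window held TATAAA on the reverse strand at -195, a motif that 13.6% of all windows held on either strand. GCGTG and CACGTG, present in 32.4% and 7.15% of windows, were in none of the 4 windows. A match is a description of the letters and not of binding. The GC content was 47.7% and 41.3% in the Fmo2 windows, 42.7% in the Fmo4 window and 56.0% in the Fmo5 window, against quartiles of 45.7% and 61.7% over all windows.

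Fmo2 lay 2.25-fold and Fmo4 1.90-fold lower in the knockout, and Fmo1 and Fmo5 lay lower by 1.31-fold and 1.25-fold. All 4 genes had a lower mean in the knockout, and in 3 of them, Fmo1, Fmo2 and Fmo4, the lowest wild-type liver lay above the highest knockout liver. Across all genes 4.76% had groups that do not overlap with the knockout lower, and 5.09% with the knockout higher. Since the members were chosen on this contrast, nothing is read from their count.

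In wild-type replicates 1, 2 and 3 the Fmo2 value was 7.84, 7.85 and 6.87, and in the same order knockout livers had 6.12, 6.27 and 6.66. Wild-type replicate 3 stood apart from the other wild-type livers and came within 0.21 of knockout replicate 3, the highest of its group. The mean was 7.52 ± 0.56 (SD, n = 3) in wild type and 6.35 ± 0.28 (SD, n = 3) in the knockout. The difference, knockout minus wild type, was -1.17 on the log2 scale, with a standard error (SE) of 0.26 from the limma fit and a 95% confidence interval of -1.75 to -0.59. Without wild-type replicate 3 it was -1.50, and without knockout replicate 3 it was -1.33.

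The Fmo4 value was 6.20, 6.24 and 6.35 in wild-type livers, the tightest of the 4 genes there. Knockout livers had 5.74, 5.43 and 4.84. Here knockout replicate 3 was the lowest, close to 4.72, the median over all genes of their mean level, where RMA compresses differences. The means were 6.26 ± 0.08 (SD, n = 3) and 5.34 ± 0.46 (SD, n = 3). The difference was -0.93 (SE 0.20, 95% confidence interval -1.38 to -0.47). Without knockout replicate 3 the difference was -0.68.

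For Fmo1, wild-type livers had 9.20, 9.66 and 9.22 and knockout livers had 8.96, 8.92 and 9.02. The knockout livers lay within 0.10 of each other, and wild-type replicate 2 was high. The means were 9.36 ± 0.26 (SD, n = 3) and 8.97 ± 0.05 (SD, n = 3), a difference of -0.39 (SE 0.15, 95% confidence interval -0.72 to -0.06). Without wild-type replicate 2 the difference was -0.24.

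Wild-type livers had Fmo5 values of 11.03, 10.96 and 10.62, and knockout livers of 10.39, 10.34 and 10.90. The genotypes overlapped, because knockout replicate 3 lay above wild-type replicate 3. The means were 10.87 ± 0.22 (SD, n = 3) and 10.54 ± 0.31 (SD, n = 3), a difference of -0.33 (SE 0.18), and the 95% confidence interval of -0.73 to 0.07 included 0. Without knockout replicate 3 the difference was -0.51 and the groups no longer overlapped.

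**Figure D1:**
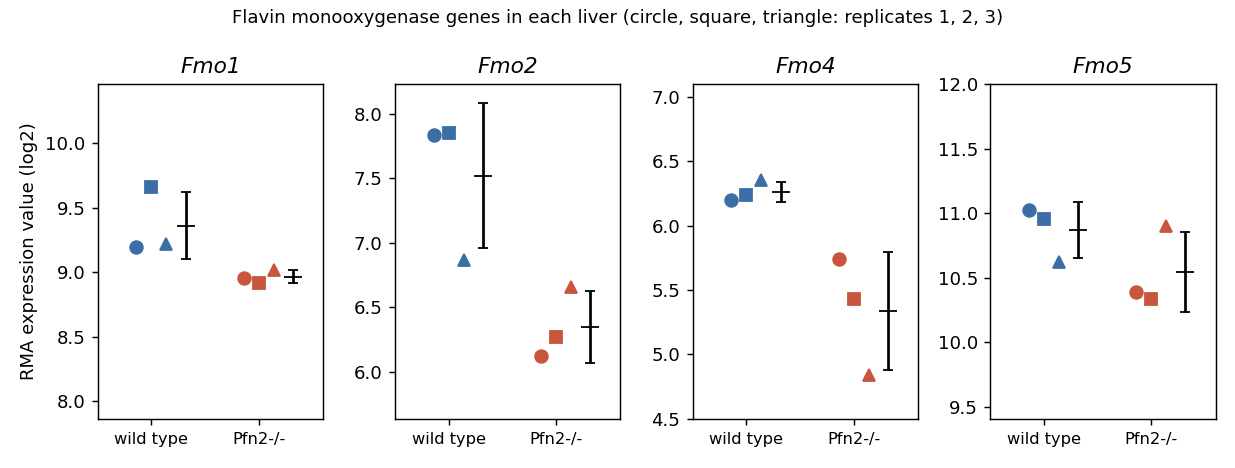
RMA expression values (log2) of Fmo1, Fmo2, Fmo4 and Fmo5 in each liver, with 1 panel per gene, all spanning the same log2 range. Points are single arrays, and black bars are the mean and SD of 3 arrays. The groups are apart in Fmo1, Fmo2 and Fmo4 and overlap in Fmo5, where knockout replicate 3 lies at 10.90.

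None of the 4 genes passed a Benjamini-Hochberg adjusted p of 0.05 in the limma fit, and neither did any other of the 22180 genes (0 called, 0%). At an unadjusted p under 0.05, 2.67% of all genes were higher and 2.62% lower in the knockout. Fmo2 was among 6 genes that passed the adjusted threshold when wild-type replicate 3, its lowest wild-type value, was left out. Nothing is read from that pass, since Fmo2 was chosen on this contrast. The other 3 members passed under none of the 15 alternatives tried. In all 15 the difference of each of the 4 genes stayed below 0. Several of these alternatives leave the estimate unchanged by construction. For Fmo1, Fmo2 and Fmo4, whose groups do not overlap, leaving out an array could not have changed the sign.

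**Figure D2:**
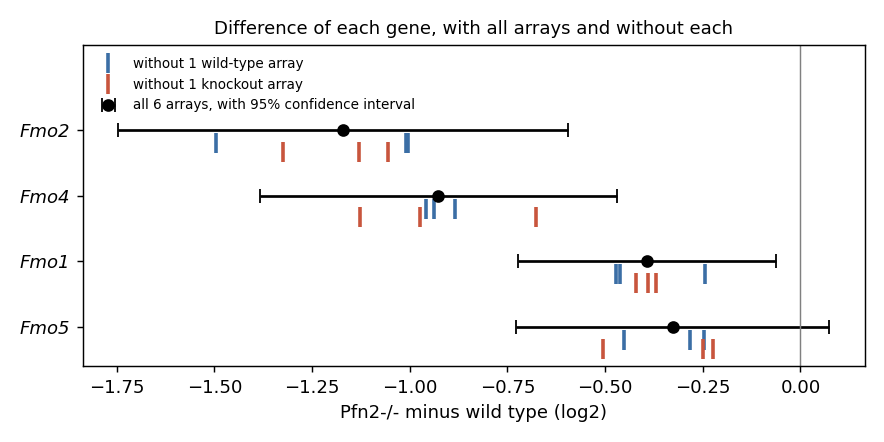
Difference of each gene between Pfn2-/- and wild type (log2, horizontal axis). Black points with bars are the limma estimate and 95% confidence interval from all 6 arrays, and ticks are the values with 1 wild-type or 1 knockout array left out. All ticks lie below 0, and the interval of Fmo5 alone reaches above it, to 0.07.

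Within each liver, the mean of Fmo2 and Fmo4 was then set against the mean of Fmo1 and Fmo5. The probes of different genes have different brightness, so the level of this quantity has no meaning of its own and its change between livers is what can be read. It was -3.10, -3.27 and -3.31 in wild type and -3.75, -3.78 and -4.21 in the knockout, so all knockout livers lay below all wild-type livers. Its means were -3.22 ± 0.11 (SD, n = 3) and -3.91 ± 0.26 (SD, n = 3), a difference of -0.69 (SE 0.16 from the spread of the arrays). No test is given, because Fmo2 and Fmo4 were set against their paralogs for having the greater differences. With 1 array left out the value ran from -0.77 to -0.54.

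Taken pair by pair, the differences in response were less even. Fmo2 minus Fmo5 changed by -0.84 (SE 0.21) and Fmo2 minus Fmo1 by -0.78 (SE 0.32). For Fmo2 minus Fmo1 the genotypes came as close as -2.35 in wild type and -2.36 in the knockout. Fmo4 minus Fmo1 changed by -0.53 (SE 0.33) and Fmo4 minus Fmo5 by -0.60 (SE 0.47), and in both knockout replicate 3 lay lowest. The genotypes overlapped in both. For Fmo4 minus Fmo1, knockout replicate 1 at -3.22 lay above wild-type replicate 2 at -3.42. For Fmo4 minus Fmo5, knockout replicate 1 at -4.65 lay above wild-type replicate 1 at -4.83. Fmo1 minus Fmo5 changed by -0.07 (SE 0.22), less than its SE. Fmo2 minus Fmo4 changed by -0.24 (SE 0.56).

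The Fmo2 and Fmo4 values did not move together from liver to liver. Fmo2 minus Fmo4 was 1.64, 1.61 and 0.52 in wild type and 0.38, 0.84 and 1.82 in the knockout, a wider range within each genotype than the change between them. Knockout replicate 3 had the highest Fmo2 and the lowest Fmo4 of its group, and wild-type replicate 3 had the lowest Fmo2 and the highest Fmo4. These deviations of Fmo2 and Fmo4 are opposite in sign in replicate 3 of both genotypes.

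**Figure D3:**
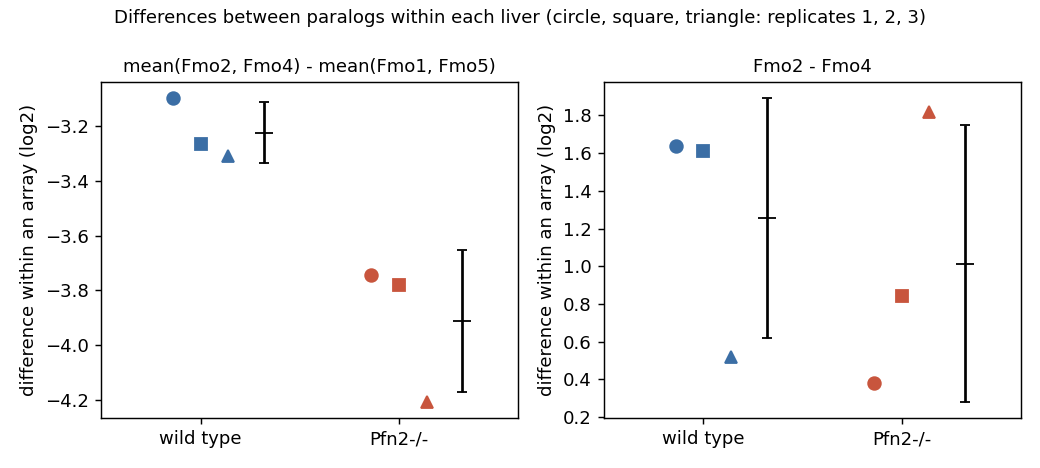
Differences between paralogs within each liver (log2, vertical axes), with black bars for the mean and SD of 3 arrays. The left panel, the mean of Fmo2 and Fmo4 minus the mean of Fmo1 and Fmo5, shows knockout livers from -4.21 to -3.75 below wild-type livers from -3.31 to -3.10. The right panel, Fmo2 minus Fmo4, shows overlapping groups.

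To see which genes varied most like each paralog over the 6 livers, every gene was centred on its own mean. Likeness is then the root mean square distance between the 6 centred log2 values of a gene and those of the paralog. A smaller distance is a closer match, and the nearest 3 genes were named. The values were not scaled, so a distance also depends on how much each gene varied. Since the genes were picked on these same values, their shared pattern follows from the choice. For Fmo2 they were St3gal5, the gene of the ganglioside GM3 synthase, at a distance of 0.18, Fkbp5, the gene of a cochaperone of steroid receptors, at 0.19, and Rasgef1b, the gene of an exchange factor for Ras-family proteins, at 0.20. Fkbp5 had values of 7.37, 7.29 and 6.06 in wild-type livers and 5.35, 5.44 and 6.34 in knockout livers. For St3gal5 these were 9.51, 9.61 and 8.82, and 7.95, 8.03 and 8.87. The Rasgef1b values were 7.59, 7.92 and 6.45, and 5.99, 6.44 and 6.51. Like Fmo2, Fkbp5 and St3gal5 were high in wild-type replicates 1 and 2, intermediate in replicate 3 of either genotype and low in knockout replicates 1 and 2. The groups of all 3 genes overlapped, whereas those of Fmo2 did not.

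The nearest genes to Fmo4 were the microRNA gene Mir361 at a distance of 0.21, Rps27, a ribosomal protein gene, at 0.22, and Ndufa11, a gene of respiratory complex I, at 0.22. Ndufa11 had values of 7.83, 8.10 and 8.01 in wild-type livers and 7.67, 7.47 and 7.12 in knockout livers. For Rps27 these were 5.76, 5.88 and 6.03, and 5.52, 5.45 and 5.01. The Mir361 row was dim, with knockout replicate 3 at 2.64. Each was lowest in knockout replicate 3, as Fmo4 was, which follows from how these genes were picked. Fmo2 and Fmo4 themselves lay 0.58 apart, and among all genes Fmo2 held rank 13100 in closeness to Fmo4 and Fmo4 rank 1304 in closeness to Fmo2. In closeness to Fmo2, Fmo5 held rank 191 and Fmo1 rank 329. In closeness to Fmo4, Fmo1 held rank 1021 and Fmo5 rank 10752. The ranks, like the distances, also depend on how much each gene varied.

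Fmo1 and Fmo5 varied less over the 6 livers than Fmo2 and Fmo4 and had matches at smaller distances. These distances are therefore not a measure of closer pattern than those of Fmo2 and Fmo4. Fmo1 was nearest to Cypt2 at 0.04, a dim row, to the immunoproteasome gene Psmb10 at 0.06 and to Entpd1, an ectonucleotidase gene, at 0.07. Fmo5 was nearest to 1600020E01Rik at 0.03, to Mgp, the gene of matrix Gla protein, at 0.05 and to the extracellular matrix gene Abi3bp at 0.06. Wild-type livers had Mgp values of 6.01, 6.02 and 5.77 and knockout livers of 5.45, 5.39 and 5.94, with knockout replicate 3 near the wild-type livers, as in Fmo5. Fmo1 and Fmo5 lay 0.23 apart and Fmo2 and Fmo5 0.47 apart. These distances include the genotype difference on which the genes were chosen and the greater variation of Fmo2. After centring within each genotype these were 0.22 and 0.21.

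**Figure D4:**
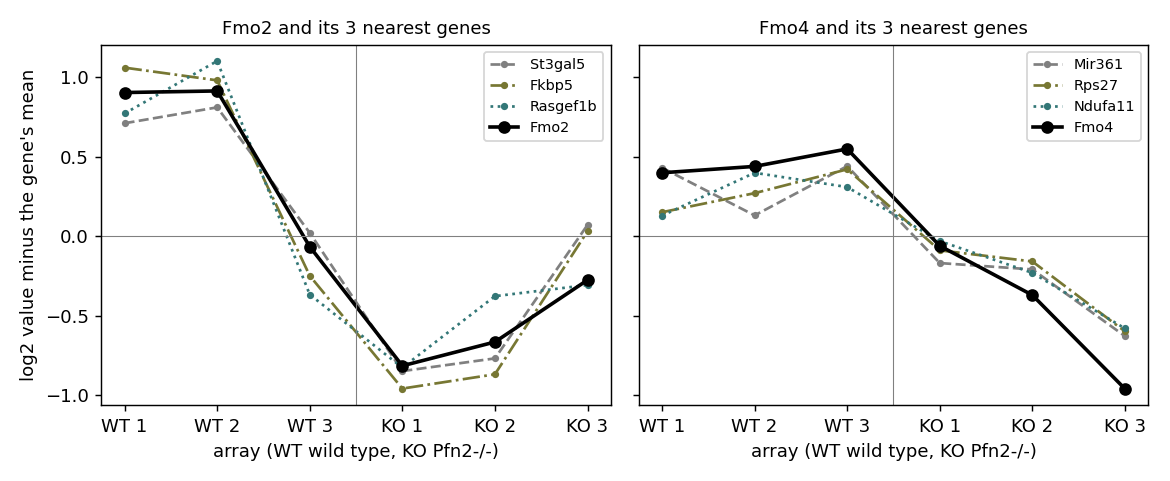
Log2 values of Fmo2 (left) and Fmo4 (right) and of the 3 genes nearest to each, after each gene was centred on its mean over 6 arrays, by array (WT wild type, KO Pfn2-/-). Fmo2 and its nearest genes are highest in wild-type replicates 1 and 2, while Fmo4 and its nearest genes are lowest in knockout replicate 3. The nearest genes were picked on these same values.

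The paralogs Fmo6 and Fmo9, no members here, had dim rows. Fmo6 lay at 3.28 to 3.45 in wild type and 3.30 to 3.67 in the knockout, and Fmo9 at 3.72 to 4.07 and 3.79 to 3.99. Of the nearest 10 measured genes on each side of the Fmo1, Fmo2 and Fmo4 cluster, 1 of 20 was lower at an unadjusted p under 0.05 and 0 were higher, with a median difference of -0.08. That gene, Mroh9, was dim at 3.01 to 3.37 and differed by -0.26 (SE 0.11). The neighbour of next smallest p, Pigc, a gene of glycosylphosphatidylinositol anchor synthesis, differed by -0.21 (SE 0.12) with overlapping groups. Around Fmo5, 1 of 20 was lower and 1 higher, with a median of 0.05, against a median of 0.00 over all genes. The lower one was the immediate neighbour Chd1l, a chromatin remodeller gene, at 6.05, 6.24 and 6.18 in wild type and 5.72, 5.68 and 5.56 in the knockout (difference -0.50, SE 0.12, limma adjusted p = 0.714). The higher one, Gm4450, differed by 0.85 (SE 0.25). Single arrays moved both medians: without knockout replicate 1 that of the chromosome 1 cluster was -0.04 (-0.05 without wild-type replicate 2) and that of the Fmo5 stretch 0.01. The Fmo5 stretch was also at 0.01 without knockout replicate 2, at 0.02 without replicate 3 of either genotype and at 0.07 without wild-type replicate 1.

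Genes that supply flavin monooxygenases with FAD and NADPH, or handle their substrates, were then described as lists. No gene of any list passed the adjusted threshold in the limma fit. Of 14 genes of riboflavin, FAD and NADPH supply, 1 was lower and 1 higher at an unadjusted p under 0.05, with a median difference of -0.09. The lower one was Slc25a32, the gene of a mitochondrial carrier for folate and FAD, at 7.41, 7.49 and 7.07 in wild type and 6.59, 6.98 and 6.84 in the knockout (difference -0.52, SE 0.16). The mitochondrial NAD kinase gene Nadk2 differed by 0.30 (SE 0.11), and Pgd, of the pentose phosphate pathway, by -0.59 (SE 0.31) with overlapping groups.

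Among 14 genes of choline and methylamine handling, 1 was lower and 1 higher, and the median was -0.01. Gnmt, the gene of glycine N-methyltransferase, lay at 10.76, 10.75 and 10.88 in wild type and 10.29, 10.40 and 10.12 in the knockout (difference -0.53, SE 0.13, limma adjusted p = 0.714). Bhmt, the betaine-homocysteine methyltransferase gene, differed by 0.74 (SE 0.25), and the choline transporter gene Slc44a2 by -0.30 (SE 0.15).

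Of 24 genes of sulfur amino acid and taurine synthesis, which include the route that ends in hypotaurine, 2 were lower and 1 higher, with a median of -0.03. Got1, of cytosolic aspartate aminotransferase, lay at 10.96, 11.44 and 10.52 in wild type and 9.93, 9.96 and 9.74 in the knockout (difference -1.10, SE 0.21, limma adjusted p = 0.488). Mat1a, which makes the methyl donor S-adenosylmethionine, differed by -0.45 (SE 0.12). Gclc, of the first step of glutathione synthesis, differed by 0.50 (SE 0.12). The genes closest to hypotaurine had 95% confidence intervals that included 0, and Cdo1 differed by -0.01 (SE 0.12), Csad by -0.26 (SE 0.20) and Ado by -0.07 (SE 0.14).

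Of 21 other oxidases and detoxification genes, 1 was higher and 1 lower, with a median of 0.04. The aldehyde oxidase gene Aox3 lay at 11.05, 10.85 and 9.95 in wild type and 11.38, 11.47 and 11.11 in the knockout (difference 0.70, SE 0.25), the opposite direction to the flavin monooxygenases. Its paralog Aox1 differed by 0.30 (SE 0.16) and the quinone reductase gene Nqo1 by -0.48 (SE 0.18), both with overlapping groups.

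Among 17 transcription factors described as acting on flavin monooxygenase genes, 3 were lower at an unadjusted p under 0.05 and 0 higher, with a median of -0.06, where 2.62% of all genes were lower by that measure. Cebpb, a liver bZIP factor gene, differed by -0.45 (SE 0.15) and Nr1i2, the pregnane X receptor gene, by -0.41 (SE 0.14). Foxo1, an insulin-responsive factor gene, differed by -0.35 (SE 0.15) with overlapping groups. The aryl hydrocarbon receptor gene Ahr differed by -0.10 (SE 0.22) and the glucocorticoid receptor gene Nr3c1 by 0.10 (SE 0.12), each less than its SE. Stat5b differed by 0.27 (SE 0.19). Without knockout replicate 2 the median of this list was 0.06, above 0, and without wild-type replicate 3 that of the other oxidases was 0.15. Without wild-type replicate 1 the median of the sulfur amino acid list was -0.06.

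**Figure D5:**
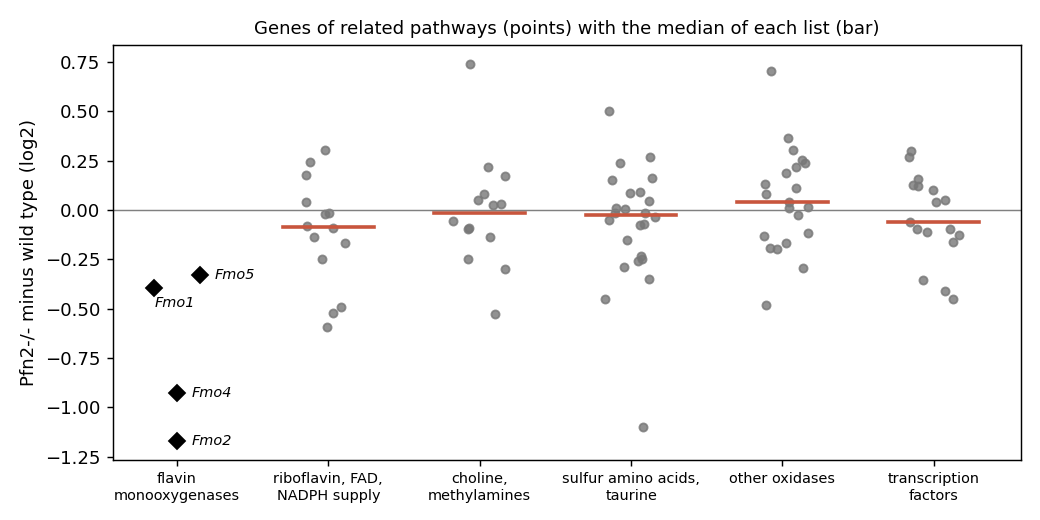
Differences between Pfn2-/- and wild type (log2, vertical axis) of the 4 flavin monooxygenase genes (diamonds) and of genes in 5 related lists (points), with each list's median as a bar. The medians lie between -0.09 and 0.04, and Got1 at -1.10 is the lowest point of the lists.

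Markers of other liver cell types were set beside these values. A difference below 0 was found in 8 of 9 endothelial, 7 of 8 hepatocyte, 7 of 8 macrophage, 7 of 9 stellate cell and fibroblast, 7 of 9 lymphocyte and neutrophil, 3 of 5 adipocyte and 2 of 5 bile duct markers, and in 11256 of all 22180 genes. Of the 9 endothelial markers 0 passed at an unadjusted p under 0.05. The mean of the endothelial markers after centring each gene was 0.12, 0.26 and -0.12 in wild-type replicates 1, 2 and 3. In knockout livers it was -0.12, 0.03 and -0.16. Wild-type replicate 3 was thus the lowest wild-type liver in this mean, as for Fmo2. This low mean rests largely on Lyve1, which varied most, at 9.07, 9.23 and 6.78 in wild type. In the knockout Lyve1 lay at 6.72, 8.41 and 7.74. Among wild-type livers Pecam1, Cdh5 and Stab1 were also lowest in replicate 3, by less, whereas Kdr, Tek, Stab2, Clec4g and Vwf were not. Knockout replicate 3 was the lowest of its group, whereas Fmo2 was highest there. Of 9 stellate cell and fibroblast markers 1, the collagen gene Col3a1, was lower (difference -0.30, SE 0.13), and the list's centred mean was -0.05 to 0.13 in wild type and -0.09 to -0.02 in the knockout. Of 8 hepatocyte, 8 macrophage, 9 lymphocyte and neutrophil and 5 adipocyte markers 0 passed, and of 5 bile duct markers 1, Sox9, was higher (0.58, SE 0.20). The part of cell composition in the flavin monooxygenase values was not tested.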

How the data were processed

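Total RNA of 6 snap-frozen mouse livers was extracted with Trizol and labelled with the GeneChip WT PLUS kit, per the labels' protocols. The authors deposited log2 expression values made with RMA, per the submitters' processing notes, which also name limma. Their versions, the probe set level and the genome build were not given in the sources used here. RMA equalises the distributions of the arrays and compresses differences of dim rows. Where a row's probes lie is not given, so close paralogs may share signal.

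Of 34390 rows, 23521 had exactly 1 gene symbol in the platform annotation, and the row of highest mean over all arrays was kept for each of 22180 genes. Each member had 1 row. Wild type and knockout were set against each other in R 4.3.3 with limma 3.58.1 (lmFit and eBayes, genotype as the sole term, two-sided, Benjamini-Hochberg over all genes), and the fit was tested on simulated data. The prior degrees of freedom were 5.71.

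The members, lists, motifs and named genes were chosen with earlier results of these data known. Named genes were the members, the 3 nearest in pattern to each, the 3 of smallest p in each pathway list and up to 2 neighbours per cluster. Others (Cdo1, Csad, Ado, Ahr, Nr3c1, Stat5b, Fmo6, Fmo9 and the markers) were chosen for their roles or after their values were seen. Of 154 list symbols, 11 were not analysed here. Alternatives were other scalings, a filter on dim genes, the mean of rows, a trended or a robust eBayes, weights per array, leaving out each array in turn, and a block for the replicate number.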

Additional observations from a re-analysis of the deposited data

How the results depend on the processing

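The differences of Fmo1, Fmo2, Fmo4 and Fmo5 stayed below 0 under all 15 alternatives. The filter, the mean of rows, the trended or robust eBayes and the block for the replicate number could not change these estimates. For Fmo1, Fmo2 and Fmo4, whose groups do not overlap, leaving out an array could not change the sign. With each array left out, Fmo2 ran from -1.50 to -1.01, the former without wild-type replicate 3, its lowest wild-type value. Fmo4 ran from -1.13 to -0.68, Fmo1 from -0.47 to -0.24 and Fmo5 from -0.51 to -0.23. In alternatives that leave out no array, Fmo2 ran from -1.33 (array weights) to -1.14. The change of Fmo2 and Fmo4 relative to Fmo1 and Fmo5 was -0.77 to -0.54 with an array left out and -0.69 to -0.64 otherwise. Leaving out arrays was also applied, after seeing the data, to the count of members with groups that do not overlap. It was 4 without wild-type replicate 3 or knockout replicate 3, when 11.2% and 9.77% of all genes were so, and 3 otherwise.

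Over all genes, 0 passed the adjusted threshold and 265 had an unadjusted p under 0.01. With array weights these counts were 2 and 399, and with the filter on dim genes 155 had an unadjusted p under 0.01. With an array left out they ran from 0 to 6 and from 148 to 421. The cause was not tested, other than that the filter tests fewer genes and leaving out arrays uses fewer samples. With the replicate number as a block (replicate block), which is also a block for the age of the mice, 7 genes passed, none of them a member. Livers of the same number did not deviate together throughout. The correlations over genes of their deviations from the group means were -0.08, 0.16 and 0.02 for replicates 1, 2 and 3. The livers of replicate 2 correlated best with each other, whereas those of replicates 1 and 3 did not. The highest value, 0.18, was that of wild-type replicate 3 with knockout replicate 1. Of 208 list medians under the alternatives, 192 moved by less than the spread between arrays, though some of these changed sign. Without wild-type replicate 2 the macrophage median went from -0.08 to 0.108 and that of lymphocytes and neutrophils from -0.033 to 0.125. Without wild-type replicate 3 that of choline and methylamine handling went from -0.013 to 0.078. Most of the other 16 were medians of the genes beside the clusters, among them that beside Fmo5, which was 0.02 with array weights and -0.003 with the filter.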
